A study of Homo sapiens with 6 samples.

Results

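Small nucleolar RNA host genes are genes that carry small nucleolar RNAs (snoRNAs) in their introns, and 10 of them that make no known protein are described here: SNHG1, SNHG3, SNHG5, SNHG6, SNHG7, SNHG8, SNHG12, SNHG15, GAS5 and ZFAS1. They were chosen by name from a table of 60960 features, and each of the 10 symbols matched 1 Ensembl identifier. The table holds bulk RNA sequencing of NCI-H1975, an established human line of non-small cell lung cancer, in 2 groups. The 3 siNC libraries, replicates 1 to 3, came from cells given a control small interfering RNA, and the 3 siGFPT2 libraries from cells given a small interfering RNA against GFPT2, an enzyme at the entry of the hexosamine pathway. The extraction text shared by all 6 also speaks of almonertinib, EGF and a knockdown of EGFR, although the treatment labels name only the 2 interfering RNAs. The study asked which genes differ in expression between the groups. Nothing says that the replicates were separate cultures, so p-values measure the spread between these libraries, which may be technical.

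A host gene is transcribed and spliced like an mRNA, and the snoRNA is trimmed out of the excised intron. Box C/D snoRNAs guide ribose methylation of ribosomal RNA and box H/ACA snoRNAs guide its pseudouridylation, each within a particle of 4 core proteins. The spliced exons that remain are poorly translated, and many host transcripts are known targets of nonsense-mediated decay, which ties their level to translation. Many hosts also begin with a 5′ terminal oligopyrimidine tract, a C followed by C and T bases at the first transcribed position, which they share with the genes of ribosomal proteins.

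The starts of the host genes are shown first so that the letters at each start can be set beside this description of the tract. RefSeq windows (GRCh38.p14) are shown for 8 of the 10. No window of SNHG6 or SNHG15 was used, so the share of windows with a run leaves out both. Each line gives 60 bases in the sense of the gene, 30 before the annotated start and 30 from the start onward, so that the annotated start is base 31. Capitals mark the longest run of at least 5 bases that starts with C, holds only C and T, and lies from 10 bases before that start onward, with its first base at most 10 bases from it, searched on the gene's own strand only. In SNHG7 the C and T bases continue upstream of the marked stretch, which the limit of 10 bases cuts short.
SNHG5 (chr6:85678704-85678763, minus strand): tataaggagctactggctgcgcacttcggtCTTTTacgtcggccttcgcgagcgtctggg
ZFAS1 (chr20:49278612-49278671, plus strand): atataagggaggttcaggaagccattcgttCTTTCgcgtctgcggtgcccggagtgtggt
SNHG12 (chr1:28581844-28581903, minus strand): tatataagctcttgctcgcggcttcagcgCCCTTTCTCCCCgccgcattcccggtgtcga
SNHG8 (chr4:118278732-118278791, plus strand): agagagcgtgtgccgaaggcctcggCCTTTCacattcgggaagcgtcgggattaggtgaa
SNHG7 (chr9:136728155-136728214, minus strand): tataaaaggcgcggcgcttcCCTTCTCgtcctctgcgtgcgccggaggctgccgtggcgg
SNHG1 (chr11:62855856-62855915, minus strand): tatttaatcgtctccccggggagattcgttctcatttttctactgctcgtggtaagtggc
SNHG3 (chr1:28505913-28505972, plus strand): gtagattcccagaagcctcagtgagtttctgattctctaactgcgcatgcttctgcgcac
GAS5 (chr1:173869016-173869075, minus strand): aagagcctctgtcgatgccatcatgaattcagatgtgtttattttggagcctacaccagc
Such a run was present in 5 of the 8 windows, against 33.5% of all 35116 RefSeq windows of the same length and 79.1% of the 86 for ribosomal protein genes. In SNHG5 and ZFAS1 the run began exactly at the annotated start, as CTTTT and CTTTC. In SNHG7 the marked run lay wholly before that start, so it does not meet the description of the tract at the first transcribed position. The run of SNHG8 ended on the start base itself, so it does not meet that description either. A match or its absence describes the letters near the RefSeq start only, which can differ from the GENCODE 29 start. The GAS5 window lies wholly upstream of its GENCODE 29 span, which begins at 173868882 on the minus strand. ZFAS1 starts at 49278642 in RefSeq and at 49278178 in GENCODE 29. Which starts these cells use was not tested.

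The libraries held 21899321 to 27234880 counted fragments, a depth recovered from the spacing of low FPKM values, and siNC replicate 3 (24493042) and siGFPT2 replicate 2 (27234880) were the deepest. These 2 libraries stand apart from the rest of the series, and the comparison of the groups is given below with and without them for the host genes, and for other genes where leaving them out moved a printed fold change by more than 1.5 times. The epithelial markers EPCAM, KRT7, KRT8, KRT18, KRT19 and CDH1 lay between 43.5 and 677 FPKM. The blood cell markers PTPRC, CD3E and CD68 lay at or below 0.167 FPKM, and the endothelial markers PECAM1 and VWF at or below 0.199. Of the fibroblast markers, DCN and LUM lay at or below 0.388 FPKM, but COL1A1 lay between 5.74 and 8.23. GFPT2 stood at 10.1, 9.30 and 8.28 FPKM in siNC replicates 1 to 3 and at 8.94, 7.58 and 8.72 in siGFPT2 replicates 1 to 3, so the groups overlapped. A two-sided exact permutation test gave p = 0.4, and 3 libraries against 3 cannot go below 0.1. Without siNC replicate 3 and siGFPT2 replicate 2 the remaining values did not overlap, with siGFPT2 lower, as was so for 18.0% of all features tested. The log2 fold change was then -0.14 (-0.35 to 0.08; unadjusted p = 0.174, adjusted p = 0.72 by limma), beside -0.13 (-0.43 to 0.17) with all 6. GFPT2 did not pass the test in either, and the name siGFPT2 stands throughout for the library labelled siGFPT2.

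The hosts of box C/D snoRNAs included the 3 most abundant transcripts of the list. SNHG6 (chromosome 8, 66921684 to 66926398, minus strand, GENCODE 29 on GRCh38), the host of SNORD87, stood at 98.5, 107 and 184 FPKM in siNC replicates 1, 2 and 3 and at 116, 167 and 125 in siGFPT2 replicates 1, 2 and 3. GAS5 (chromosome 1, 173863900 to 173868882, minus strand), named for its accumulation in growth-arrested cells and the host of a long series of C/D snoRNAs, stood at 25.1, 26.3 and 38.8 FPKM across siNC and 27.5, 35.6 and 28.4 across siGFPT2. In both genes siNC replicate 3 was the highest library and siGFPT2 replicate 2 the second, and the groups overlapped. SNHG1 (chromosome 11, 62851988 to 62855914, minus strand), the host of SNORD22, SNORD25 to SNORD28 and SNORD30, stood at 20.2, 23.1 and 27.2 FPKM across siNC and 23.1, 26.5 and 23.6 across siGFPT2. ZFAS1 (chromosome 20, 49278178 to 49295738, plus strand), the host of the SNORD12 family, was lower, at 2.48, 2.82 and 5.92 FPKM across siNC and 2.98, 4.54 and 3.34 across siGFPT2. It varied the most of the 10, with a highest library 2.39 times its lowest, while SNHG1 had 1.35. For both genes the order of the 2 highest libraries was the same as for SNHG6, and again the groups overlapped.

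SNHG5 (chromosome 6, 85660950 to 85678748, minus strand), the host of SNORD50B, was close to absent from the table. It stood at 0.0646, 0.0870 and 0.104 FPKM across siNC and 0.112, 0.0641 and 0.0929 across siGFPT2. These values rest on 9, 12 and 16 fragments for siNC and 16, 11 and 13 for siGFPT2. Counting error at this depth covers differences of this size, and no library stood out: siGFPT2 replicate 2 was the lowest and siGFPT2 replicate 1 the highest. Its value rests on a gene length of 6302 bases, against 2806 exonic bases in GENCODE 29, and what keeps the count low was not tested.

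The hosts of box H/ACA snoRNAs were of middle abundance. SNHG3 (chromosome 1, 28505980 to 28510892, plus strand), the host of SNORA73A and SNORA73B, stood at 8.25, 8.96 and 12.7 FPKM across siNC and 9.70, 11.4 and 9.83 across siGFPT2. SNHG15 (chromosome 7, 44983023 to 44986961, minus strand), the host of SNORA9, stood at 8.83, 7.999 and 10.6 FPKM across siNC and 8.75, 10.4 and 8.09 across siGFPT2. The ranges of these 2 genes over the 6 libraries overlapped each other, so their order is not fixed by these data. SNHG7 (chromosome 9, 136721366 to 136728184, minus strand), the host of SNORA17A and SNORA17B, stood at 7.98, 6.59 and 11.4 FPKM across siNC and 7.24, 10.1 and 8.34 across siGFPT2. SNHG8 (chromosome 4, 118278709 to 118279823, plus strand), the host of SNORA24, stood at 4.11, 3.69 and 6.88 FPKM across siNC and 3.95, 6.13 and 3.72 across siGFPT2. In SNHG7 and SNHG8 siNC replicate 3 and siGFPT2 replicate 2 were again the 2 highest libraries. SNHG12 (chromosome 1, 28578538 to 28583132, minus strand) hosts snoRNAs of both classes, among them SNORA44, SNORA61 and SNORD99, and stood at 2.84, 2.60 and 3.40 FPKM across siNC and 2.67, 3.74 and 2.57 across siGFPT2. It was the exception in that siGFPT2 replicate 2, not siNC replicate 3, was its highest library.

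**Figure D1:**
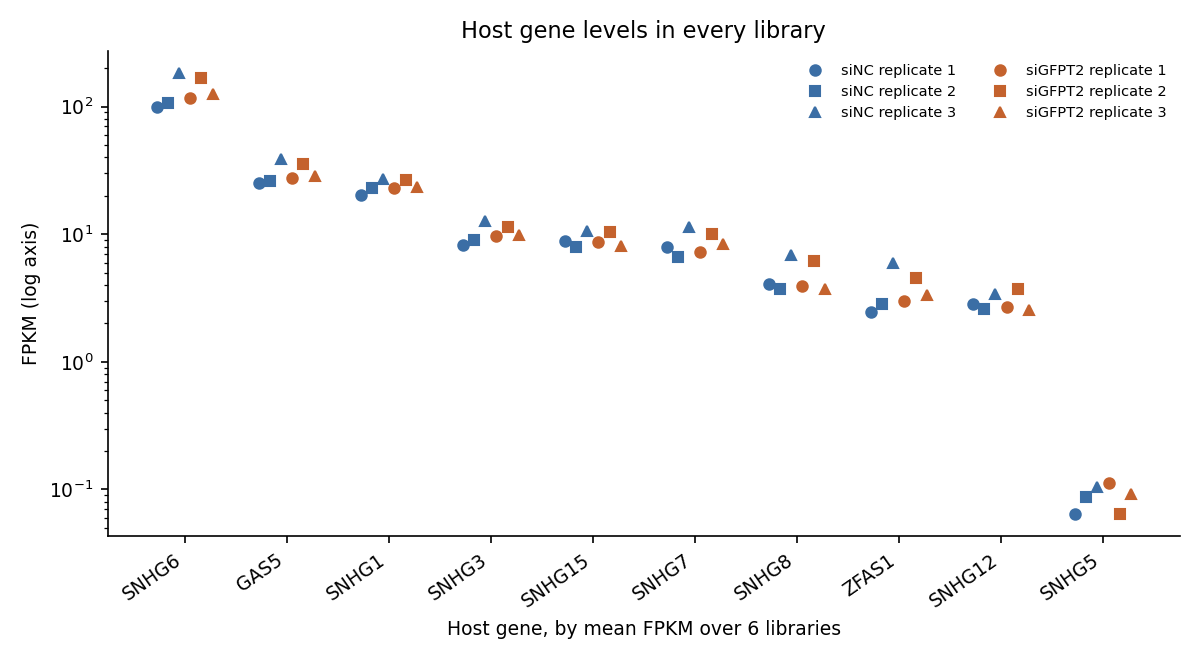
FPKM on a log axis for each of the 10 host genes, ordered by their mean, with 1 point per library (blue for siNC, orange for siGFPT2; circle, square and triangle for replicates 1, 2 and 3). In 9 genes the blue triangle (siNC replicate 3) and the orange square (siGFPT2 replicate 2) are the 2 highest points; in SNHG5, near 0.1 FPKM, they are not.

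By mean FPKM the order was SNHG6 (133), GAS5 (30.3), SNHG1 (23.9), SNHG3 (10.1), SNHG15 (9.11), SNHG7 (8.60), SNHG8 (4.75), ZFAS1 (3.68), SNHG12 (2.97) and SNHG5 (0.0873). The ranges of neighbours in this order did not overlap between SNHG6 and GAS5, between SNHG1 and SNHG3, and between SNHG12 and SNHG5; all other neighbours overlapped. FPKM divides by the exonic bases annotated for a gene, which can include introns kept in some isoforms. The length behind the value was 8315 bases for ZFAS1 and 6608 for SNHG8, against 2243 and 923 exonic bases in GENCODE 29. For SNHG8 it was longer than the whole GENCODE 29 span of the gene. Both lengths are the smallest that gave whole reads, and the gene model behind them is not given in the sources used here. The median annotated transcript of GENCODE 29 was 664 bases for ZFAS1 and 470 for SNHG8. For SNHG6 the length behind the value and the median transcript were closer, at 1247 and 560 bases. The levels of the hosts therefore differ partly through this divisor, and by an amount that was not tested; comparisons of 1 gene between libraries do not depend on it. SNHG6 and GAS5 together supplied close to equal parts of the fragments of the list: 25.0% to 29.3% came from SNHG6 and 24.0% to 24.9% from GAS5. The counts behind the FPKM ran from 9 to 16 fragments per library for SNHG5, and 243 to 434 for SNHG12, up to 2717 to 5659 for SNHG6.

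Between siGFPT2 and siNC, 0 of the 9 host genes that passed the filter (a mean of at least 1 FPKM; SNHG5 did not pass) differed by limma at an adjusted p of 0.05, where 0.00% of the 12896 features tested did so in all. At an unadjusted p under 0.05 there were 0 host genes too, with a background of 0.651% (0.326% higher and 0.326% lower in siGFPT2). limma-voom on recovered reads also gave 0 host genes at either threshold (background 0.00% and 0.465%). The groups overlapped in each of the 9, where they did not overlap for 3.53% of all features (2.16% with siGFPT2 higher). SNHG6 was 130 ± 47.1 FPKM in siNC (SD, n = 3) and 136 ± 27.0 in siGFPT2 (SD, n = 3), which is 0.11 ± 0.27 (SE) as a difference on the log2(FPKM + 0.1) scale. Its 95% interval of -0.53 to 0.74 corresponds to a change between -30.6% and 67.1%. GAS5 was 30.1 ± 7.58 and 30.5 ± 4.41 FPKM, with a log2 fold change of 0.04 (-0.43 to 0.51). For GAS5 that interval spans -25.8% to 42.4%, so a change inside these bounds is not excluded. The smallest change that could be detected was not computed.

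The tightest comparison was that of SNHG1, at 23.5 ± 3.55 and 24.4 ± 1.81 FPKM (log2 0.06, -0.27 to 0.39), and the widest that of ZFAS1, at 3.74 ± 1.89 and 3.62 ± 0.821 (log2 0.04, -0.77 to 0.85). For ZFAS1 the mean of the FPKM values was higher in siNC while the log2 fold change was above 0. Among the H/ACA hosts the log2 fold changes were 0.07 for SNHG3 (-0.36 to 0.50), -0.01 for SNHG15 (-0.37 to 0.36), 0.01 for SNHG7 (-0.53 to 0.54) and -0.07 for SNHG8 (-0.75 to 0.62). SNHG12 had 0.01 (-0.44 to 0.46). For all 9 the adjusted p was 0.9999 by limma. SNHG5, tested in the fit with no filter on low values, had 0.03 (-0.46 to 0.52) with an unadjusted p of 0.878, and 0 of the 10 host genes were under 0.05 there, beside 2.04% of 36981 features. The median over the 9 genes was 0.04, beside 0.03 over all features tested. Of the 9 fold changes 7 were above 0, as were 61.4% of all, and this count was 3 with the libraries centred on their median and 4 with quantile normalization.

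**Figure D2:**
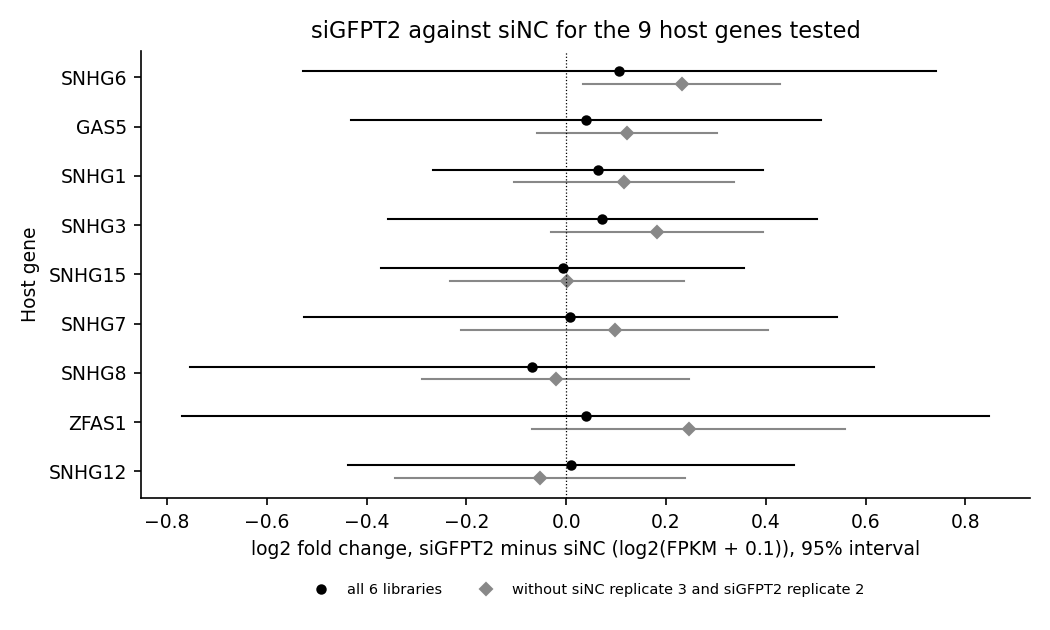
log2 fold change (siGFPT2 minus siNC, on log2(FPKM + 0.1)) with its 95% interval for the 9 host genes tested, from all 6 libraries (black circles) and without siNC replicate 3 and siGFPT2 replicate 2 (grey diamonds). All black intervals contain 0; of the grey ones only that of SNHG6, 0.03 to 0.43, does not. With median centring 4 and with quantile normalization 3 of the black points change sign.

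The host genes moved together between libraries of the same group. In all 9 genes tested siNC replicate 3 was the highest siNC library and siGFPT2 replicate 2 the highest siGFPT2 library, where 32.8% of all features had this pattern and 39.5% had the reverse, with both as the lowest. The same 2 libraries were the 2 highest of the 6 in 9 of 9, against 29.8% of all features. Replicate 3 of siNC was the single highest library in 8 of 9, SNHG12 being the exception, and in 30.2% of all. ZFAS1 in siNC replicate 3 was 2.23 times the mean of the other siNC libraries, SNHG6 1.79, SNHG8 1.76, SNHG7 1.56, GAS5 1.51, SNHG3 1.47, SNHG1 1.26, SNHG15 1.26 and SNHG12 1.25, with a median of 1.51 beside 0.970 over all features. In siGFPT2 replicate 2 the ratio to the other siGFPT2 libraries was smaller for 8 of the 9, running from 1.13 for SNHG1 to 1.60 for SNHG8, with a median of 1.30 beside 0.968. A ratio over 1.5 was reached by 5 of 9 in siNC replicate 3 (background 11.5%) and by SNHG8 alone in siGFPT2 replicate 2 (background 2.77%). SNHG12 was again the exception, with 1.43 against its 1.25. In fragments, the 10 genes took 4.92, 5.12 and 7.84 of every 10000 counted in siNC replicates 1 to 3, and 5.42, 7.17 and 5.64 in siGFPT2 replicates 1 to 3. These are descriptions of single libraries and have no test.

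**Figure D3:**
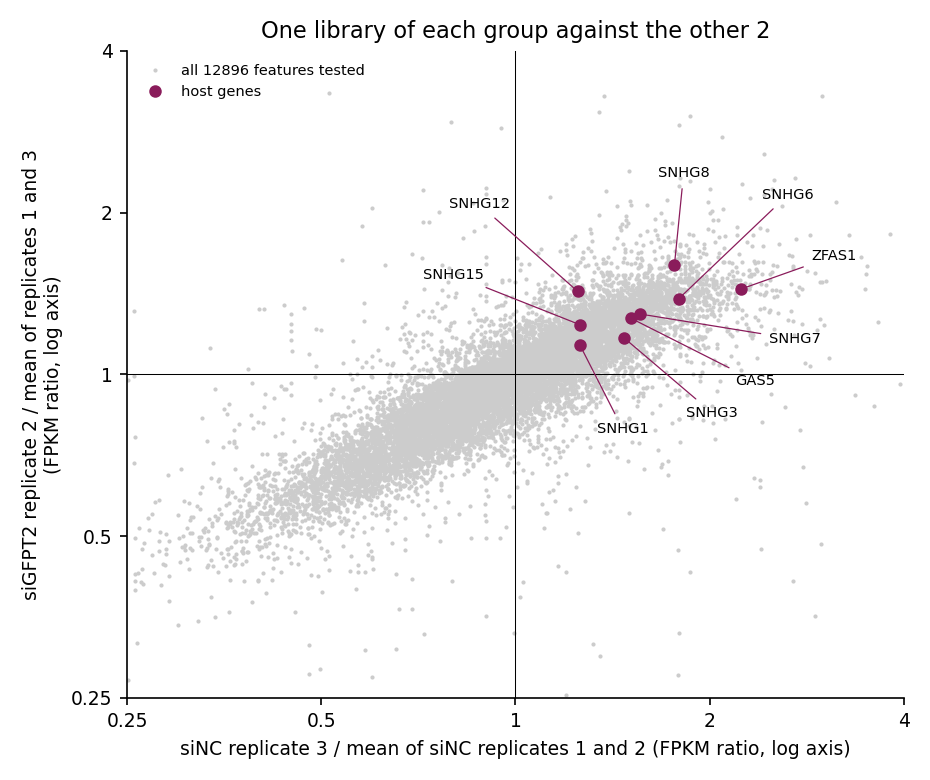
For every feature tested, the FPKM in siNC replicate 3 over the mean of siNC replicates 1 and 2 (x, log axis) against the FPKM in siGFPT2 replicate 2 over the mean of siGFPT2 replicates 1 and 3 (y, log axis). Grey points are the 12896 features, 125 of which lie outside the axes, and the 9 labelled host genes all lie above 1 on both axes, from SNHG12 at 1.25 to ZFAS1 at 2.23 on x.

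Other measures moved with these 2 libraries. They were the deepest, and their values fell with gene length, with slopes of -0.081 and -0.055 log2 units per doubling of length, where the other 4 libraries had 0.027 to 0.048. The cytosolic ribosomal protein genes deviated the same way and further, with median deviations of 0.54 in siNC replicate 3 and 0.34 in siGFPT2 replicate 2, beside 0.38 and 0.25 for the host genes. The part of depth, length and library quality in the levels of the host genes was not tested. In bulk RNA, fewer expressing cells and less RNA per cell cannot be told apart. Leaving out the 2 highest libraries lowers the spread by construction. Over the 4 that remain, the coefficient of variation of the 9 genes was 4.6% (SNHG12) to 12.3% (ZFAS1), against 10.7% (SNHG1) to 35.5% (ZFAS1) over all 6.

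In the 4 libraries that remain, 0 of 9 host genes passed limma's test at an adjusted p of 0.05 (0.00% of all features) and 0 passed limma-voom's. SNHG6 had 98.5 and 107 FPKM across siNC and 116 and 125 in siGFPT2, which is 0.23 (0.03 to 0.43) on the log2 scale. By limma its p was 0.0288 before adjustment and 0.7196 after it. It was the only host gene at an unadjusted p under 0.05, where 3.99% of all features were so and higher in siGFPT2 and 1.84% were so and lower. limma-voom gave the same single gene (background 4.58%). The 2 siGFPT2 libraries lay above the 2 siNC libraries in SNHG1, SNHG3, SNHG6, GAS5 and ZFAS1 (5 of 9, background 23.9%) and below them in 0 (background 18.0%). The same was seen in 52 of 83 cytosolic ribosomal protein genes, 25 of 46 protein-coding snoRNA hosts and 13 of 20 other translation-related genes, lists described further on. ZFAS1 had 0.25 (-0.07 to 0.56), SNHG3 0.18 (-0.03 to 0.39), GAS5 0.12 (-0.06 to 0.30) and SNHG1 0.12 (-0.10 to 0.34). SNHG12 (-0.05), SNHG8 (-0.02), SNHG15 (0.00) and SNHG7 (0.10) overlapped between the groups. Of the 9 fold changes 7 were above 0, beside 57.0% of all. With 2 libraries a group these values describe the libraries at hand.

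The snoRNAs inside the hosts were almost not counted. GENCODE 29 places 25 snoRNA features within 9 of the hosts, on the same strand, and those of GAS5 were not analysed here. Of these, 21 share bases with annotated exons of the host, and all 21 are listed at 0 in all 6 libraries. The other 4 share no base with host exons, and each had at least 1 fragment. They are shown here because they are the features among these 25 that had fragments. By symbol, 31 features of the table bear names of snoRNAs listed for the hosts, and 5 were above 0, these 4 and another identifier with the symbol SNORD27 that is not among the 25. Capitals mark, where found, the box C core TGATGA and the box D CTGA of C/D snoRNAs near their ends, and the ACA that lies 3 bases before the end of an H/ACA snoRNA (sequences from GENCODE 29, GRCh38).
SNORD99, in SNHG12 (chr1:28578749-28578822, minus strand): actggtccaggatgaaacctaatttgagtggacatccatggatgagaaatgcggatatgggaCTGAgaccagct
SNORD12C, in ZFAS1 (chr20:49278940-49279028, plus strand): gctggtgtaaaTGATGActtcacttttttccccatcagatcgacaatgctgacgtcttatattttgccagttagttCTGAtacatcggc
SNORD12B, in ZFAS1 (chr20:49280319-49280409, plus strand): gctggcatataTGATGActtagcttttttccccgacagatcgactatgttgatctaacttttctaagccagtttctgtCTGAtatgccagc
SNORA73B, in SNHG3 (chr1:28508559-28508762, plus strand): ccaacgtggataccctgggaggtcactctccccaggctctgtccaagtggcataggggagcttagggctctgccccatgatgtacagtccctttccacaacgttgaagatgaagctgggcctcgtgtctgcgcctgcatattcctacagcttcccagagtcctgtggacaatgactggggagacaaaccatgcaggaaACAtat
SNORA73B had 13, 9 and 11 fragments in siNC and 17, 12 and 20 in siGFPT2, and its groups overlapped. The log2 fold change of 0.47 (-0.20 to 1.13) did not pass limma's test (unadjusted p = 0.139, adjusted p = 0.9999), and without both libraries it was 0.72 (0.25 to 1.18; unadjusted p = 0.00879, adjusted p = 0.7196). SNORD99 had 14, 4 and 25 in siNC and 11, 20 and 4 in siGFPT2, with the same 2 libraries highest as in its host SNHG12. SNORD12C had 2, 2 and 3 in siNC and 0, 1 and 2 in siGFPT2, so its fragment counts overlapped. Its FPKM did not, by 1.012 in siGFPT2 replicate 3 against 1.016 in siNC replicate 1, each from 2 fragments. It did not pass the test (unadjusted p = 0.0922, adjusted p = 1 by limma with no filter), and SNORD12B had 1 fragment in all. The libraries were made from poly(A) RNA, so these fragments can come from unspliced host RNA as well as from snoRNAs, which the table does not separate.

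Exons of 6 hosts are shared with another gene of GENCODE 29, and whether counting used strand is not given in the sources used here, so their values are uncertain to that extent. The shared part was 29.3% of the exonic bases of SNHG6 (with MCMDC2, opposite strand, at most 40 fragments in a library) and 25.2% of those of SNHG7 (with FAM69B, opposite strand, at most 151). ZFAS1 shared 11.1% with ZNFX1 on the opposite strand, and SNHG3 shared 5.9% with RCC1 on its own strand. GAS5 (1.2%, GAS5-AS1) and SNHG12 (0.2%, TRNAU1AP) shared little. ZNFX1, which is transcribed away from ZFAS1, stood at 18.9, 19.7 and 10.9 FPKM across siNC and 18.4, 12.3 and 18.0 across siGFPT2, so that its 2 lowest libraries were the 2 highest of ZFAS1. RCC1, the guanine nucleotide exchange factor of RAN, stood at 44.8 ± 2.11 FPKM in siNC (SD, n = 3) and 45.2 ± 2.43 in siGFPT2, without the wide spread of SNHG3. SLC3A2, which flanks SNHG1, stood at 40.9 ± 4.79 and 41.7 ± 5.11 FPKM.

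Other noncoding hosts gave the same picture in part. Of 22 listed symbols 16 passed the filter, 0 were called by limma (0 at an unadjusted p under 0.05), and 8 fold changes lay above 0 and 8 below. In 11 of the 16 siNC replicate 3 and siGFPT2 replicate 2 were the 2 highest libraries. SNHG19 stood at 21.5, 21.8 and 48.1 FPKM across siNC and 23.0, 41.2 and 26.2 across siGFPT2, and SNHG29 at 24.7, 27.2 and 39.1 and 28.4, 37.4 and 29.6. SNHG32 varied less than SNHG19 and SNHG29, at 16.6, 14.3 and 18.6 and 15.2, 18.5 and 16.1. SNHG16 did not have siNC replicate 3 among its 2 highest libraries, at 8.68, 8.09 and 8.30 FPKM across siNC and 8.74, 9.35 and 8.63 across siGFPT2, and had the smallest p of the list (log2 0.09, unadjusted p = 0.394, adjusted p = 0.9999; 0.05 without both libraries). SNHG30 had a log2 fold change of 0.23, and 0.39 without siNC replicate 3 and siGFPT2 replicate 2 (unadjusted p = 0.0142, adjusted p = 0.7196 by limma).

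Protein-coding genes that also host snoRNAs were divided by the kind of protein they make, a split made after their values were seen. All 46 listed passed the filter, 0 were called and 0 had an unadjusted p under 0.05. Of the 24 that encode ribosomal proteins, 24 had siNC replicate 3 and siGFPT2 replicate 2 as the 2 highest libraries, with a median ratio of 1.70 in siNC replicate 3. Of the 22 others, 9 did, with a median ratio of 1.02. Among them, the translation elongation factor EEF2 stood at 1228, 1048 and 982 FPKM across siNC and 1056, 1040 and 1006 across siGFPT2, lowest in siNC replicate 3. The mitochondrial chaperone HSPA9 and TAF1D, a subunit of the RNA polymerase I factor SL1, had the smallest p, with log2 fold changes of 0.11 and 0.22. Without both libraries that of TAF1D was 0.37 (unadjusted p = 0.108, adjusted p = 0.7196 by limma). RPS2, of the small ribosomal subunit, stood at 2124, 1722 and 2676 FPKM across siNC and 1877, 2491 and 1846 across siGFPT2.

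The mRNAs of the proteins that build snoRNA particles are given as those of the partners of the snoRNAs. The proteins themselves were not measured. The mRNAs of all 8 core proteins passed the filter and 0 were called, 0 had an unadjusted p under 0.05, and the median of their log2 fold changes was 0.03. The groups did not overlap in 2 of the 8, NOP58 and DKC1, with siGFPT2 higher in both (either direction: 3.53% of all features). The H/ACA protein NOP10 stood at 392, 377 and 581 FPKM across siNC and 379, 531 and 382 across siGFPT2, and SNU13, which binds the C/D fold, at 64.3, 59.5 and 83.6 and 61.7, 76.7 and 63.3. Both had the same 2 libraries highest as the hosts, as did 6 of the 8. The C/D protein NOP58 and the pseudouridine synthase DKC1 had the smallest p, with log2 fold changes of 0.21 (unadjusted p = 0.159) and 0.08. Of the 15 assembly factors 0 were called, 13 of the fold changes lay above 0 (61.4% of all features), and 5 had the 2 libraries highest (29.8% of all). RPAP3, a cochaperone of particle assembly, had 0.25, PHAX, an adaptor of small RNA export, had 0.18, the nucleolar phosphoprotein NOLC1 0.10 and the ATPase RUVBL2 -0.15. Without both libraries RPAP3 had 0.38 (unadjusted p = 0.0590) and PHAX 0.28 (unadjusted p = 0.0321), each with an adjusted p of 0.7196 by limma, and NOLC1 had 0.05.

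Genes of nonsense-mediated decay were listed as factors and as targets. Of 18 factors 0 were called, and in 10 siNC replicate 3 and siGFPT2 replicate 2 were the lowest libraries of their groups, in 6 the highest. Their median deviation was -0.25 in siNC replicate 3 and -0.11 in siGFPT2 replicate 2. SMG5, which recruits the decay enzymes, stood at 47.8, 44.0 and 34.5 FPKM across siNC and 44.7, 37.5 and 44.6 across siGFPT2, while the exon junction protein RNPS1 stood at 29.9, 28.4 and 33.3 and 29.4, 33.7 and 29.05. SMG9 (-0.15) and UPF2 (0.17) had the smallest p. Of 17 measured mRNAs listed as decay targets 0 were called, and the median of the log2 fold changes was 0.01. In 10 of the 17 siNC replicate 3 and siGFPT2 replicate 2 were the 2 highest libraries (background 29.8%), with median deviations of 0.16 and 0.14. ATF4, the stress response factor whose mRNA carries upstream reading frames, stood at 110.0, 108 and 139 FPKM across siNC and 107, 134 and 108 across siGFPT2. UPP1, a uridine phosphorylase, stood at 47.9, 43.8 and 59.7 and 46.2, 61.9 and 45.8. Both were highest in the same 2 libraries as the hosts. The smallest p of this list belonged to UPF3B and the splicing factor SRSF6, with 0.11 and 0.09.

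Ribosomal protein genes and other translation-related genes, many of them known for terminal oligopyrimidine starts, were compared last. Of 83 cytosolic ribosomal protein genes and paralogs tested, 0 were called, and 82 had siNC replicate 3 and siGFPT2 replicate 2 as the 2 highest libraries. RPL41 stood at 1032, 998 and 1942 FPKM across siNC and 1110, 1709 and 1238 across siGFPT2. The smallest p belonged to the paralogs RPL7L1 and RPS27L, with log2 fold changes of 0.09 and 0.21. Without both libraries that of RPS27L was 0.42 (unadjusted p = 0.0390, adjusted p = 0.7196 by limma). Of the 20 other genes of this list, 0 were called and 15 had the 2 libraries highest. EEF1A1, the factor that brings aminoacyl-tRNA to the ribosome, stood at 587, 553 and 644 FPKM across siNC and 588, 658 and 627 across siGFPT2. CCNG1, an atypical cyclin, and EIF3L, an initiation factor subunit, had the smallest p, with log2 fold changes of 0.25 (unadjusted p = 0.0839) and 0.17. The groups of CCNG1 did not overlap, as was so for 1 of the 20 (3.53% of all features). Without both libraries CCNG1 had 0.33 (0.07 to 0.60, unadjusted p = 0.0223, adjusted p = 0.7196 by limma). None of the lists held a gene called by limma. Of their features that passed the filter, only 1, a snoRNA outside the hosts, had an unadjusted p under 0.05 with all 6 libraries. Features below the filter are not part of this count.

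**Figure D4:**
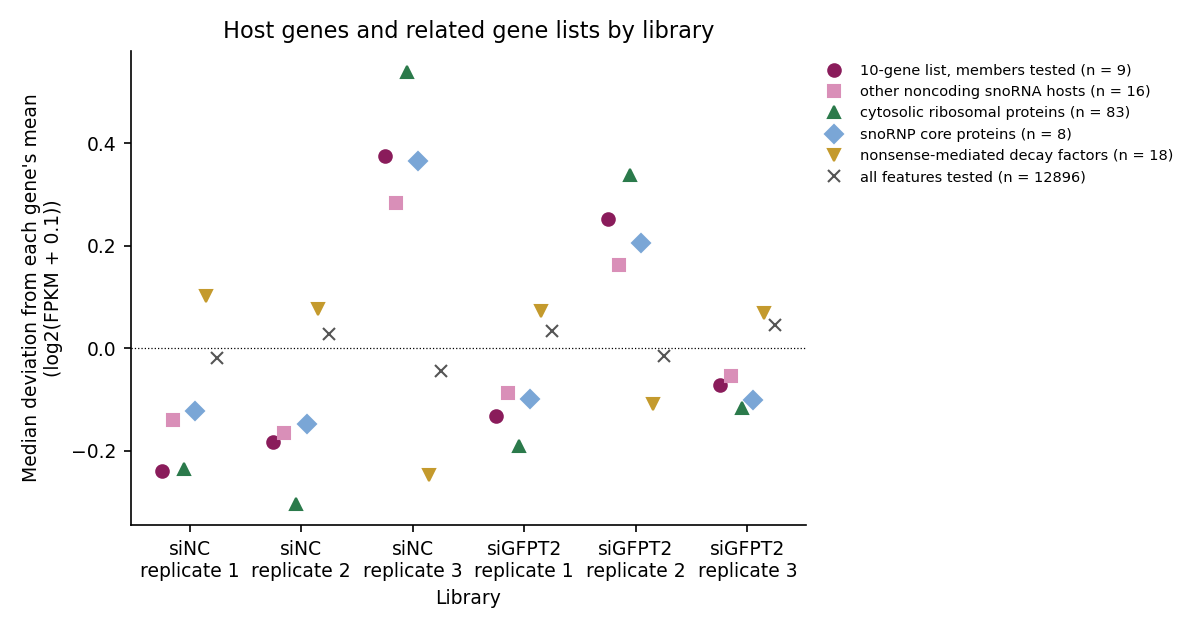
Median deviation of each list from its genes' means over the 6 libraries, on log2(FPKM + 0.1), by library, for the 9 host genes tested, 16 other noncoding hosts, 83 cytosolic ribosomal protein genes, 8 snoRNA particle core proteins, 18 decay factors and all 12896 features. In siNC replicate 3 and siGFPT2 replicate 2 the host genes (0.38 and 0.25), the ribosomal and the core protein genes lie above 0 and the decay factors (-0.25 and -0.11) below.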

How the data were processed

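The authors deposited FPKM values per gene for the 6 libraries in 1 table. Per the labels' protocols, polyadenylated RNA was captured with oligo(dT) and sequenced from both ends. The tools named, per the submitters' processing notes, are HISAT2, featureCounts and DESeq2, without versions. Genome build, annotation and strand setting: not given in the sources used here. Symbols came from a table of gene names and loci from GENCODE 29 (GRCh38). Depth and gene length were recovered from the FPKM steps as whole reads (tolerance 0.0001 reads): 53.9% of the 36981 features above 0 with the GENCODE 29 exon length, and all but 2 of the others with the smallest length that gave whole reads, which partly builds in the result.

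limma 3.58.1 (R 4.3.3; trend, two-sided) was run on log2(FPKM + 0.1) with group as the only term, over the 12896 features whose mean reached 1 FPKM, with Benjamini-Hochberg adjustment over all of them and a threshold of 0.05. This scale understates changes of low genes. The fit was also run on simulated data in which the libraries varied independently. These lacked the shared shift of siNC replicate 3 and siGFPT2 replicate 2, so they do not show how the fit behaves under it. Members and lists were chosen with earlier results of these data known. Named genes were all 10 hosts, GFPT2, genes sharing a host's locus, and for each list the 2 of highest mean (4 for other hosts) and the 2 of smallest p. Intervals are 95% intervals of the fit. Alternatives were other pseudocounts, filters, scalings, a replicate block, a length covariate, limma-voom and left-out libraries. One overlap with a host gene's exons is not reported here.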

Additional observations from a re-analysis of the deposited data

How the results depend on the processing

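Under all 17 alternatives 0 host genes and 0 features were called, and the features at an unadjusted p under 0.05 ran from 16 with a minimum mean of 5 FPKM to 866 with limma-voom without both siNC replicate 3 and siGFPT2 replicate 2, beside 84 in the main comparison (751 with limma without both, 754 with no filter, 704 with the length slope as covariate, 520 without siNC replicate 3, 161 without siNC replicate 2). The smallest adjusted p of a host gene was 0.6708. The direction of single host genes was not stable to any library: all 9 were above 0 without siNC replicate 3, siGFPT2 replicate 1 or siGFPT2 replicate 3, and 9, 7 and 8 were below 0 without siNC replicate 1, siNC replicate 2 and siGFPT2 replicate 2. Over the 6 fits that leave out 1 library the log2 fold change ran from -0.040 to 0.176 for SNHG1, -0.049 to 0.257 for SNHG3, -0.063 to 0.387 for SNHG6, -0.166 to 0.222 for SNHG7, -0.289 to 0.200 for SNHG8, -0.156 to 0.114 for SNHG12, -0.108 to 0.103 for SNHG15, -0.076 to 0.237 for GAS5 and -0.194 to 0.417 for ZFAS1, and their median from -0.108 to 0.222. Median centring gave -0.044 for SNHG7, -0.043 for SNHG12, -0.013 for GAS5 and -0.014 for ZFAS1. Quantile normalization gave -0.010 for SNHG7, -0.046 for SNHG12 and -0.006 for ZFAS1. Without both libraries SNHG12 had -0.052 and SNHG15 0.002 with limma, and -0.054 and 0.002 with limma-voom. GFPT2 stayed between -0.208 and -0.060. The replicate block called 0 features, with 63 at an unadjusted p under 0.05, and changed no call. The correlation of deviations across features between same-numbered libraries was 0.47, -0.72 and -0.57 for numbers 1, 2 and 3. Between siNC replicate 3 and siGFPT2 replicate 2 it was 0.79. Deviations were taken from the mean of each group of 3, so these 2 libraries bear on every one of the values. Whether the numbers pair the samples is therefore not settled. limma-voom, scaled by library totals, was added after the data were seen; the planned voom fit with TMM factors and the edgeR test were not run, since the deposited values are not counts.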

Other observations

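SnoRNA features outside the 10 hosts were mostly empty in these poly(A) libraries: of 522 features 375 (71.8%) are listed at 0 in all 6 libraries and 36 passed the filter. SNORD104 had 31, 18 and 44 fragments in siNC and 29, 50 and 23 in siGFPT2, and SNORD93 had 16, 22 and 29 and 18, 32 and 19, so in both the 2 libraries that were highest for the host genes were the highest. Over the 36 this held for 5 (13.9%, beside 29.8% of all features), with median deviations of -0.004 and -0.005 in those libraries. SNORD15B, carried by the ribosomal protein gene RPS3, had 1, 2 and 3 fragments in siNC and 5, 7 and 5 in siGFPT2, with groups that did not overlap (background 3.53%). Its log2 fold change of 1.38 did not pass limma's test (unadjusted p = 0.003647, adjusted p = 0.9999), and it rests on at most 7 fragments per library. SNORD9, which did not pass the filter, had 0, 1 and 0 fragments in siNC and 3, 6 and 2 in siGFPT2, with groups that did not overlap. By limma with no filter on low values its unadjusted p was 0.0055 and its adjusted p was 1. In that fit 2.04% of 36981 features had an unadjusted p under 0.05.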
